A study of Mus musculus with 2 samples.

Results

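The genes described here encode core parts of the spliceosome and the SR proteins: every gene whose platform symbol begins with Snrp, Sf3a, Sf3b, Prpf or Srsf. Members were chosen by that symbol and represented by the probeset (a group of probes for one transcript) with the highest mean log2 signal over both arrays, among probesets annotated to 1 gene. This gave 40 of 18193 genes, namely 9 Snrp, 9 Sf3a or Sf3b, 12 Prpf and 10 Srsf genes. RNA came from RAW264.7, a mouse macrophage-like cell line, infected with the retroviral vector MSCV. The vector was empty in one group and encoded the microRNA miR-155 in the other; both groups were selected with puromycin and cloned by limiting dilution. Each group was 1 pool of RNA from 5 clones on 1 Affymetrix array, so differences between clones, cultures and arrays cannot be told apart from the effect of miR-155, and no p-value was computed. Ratios are of miR-155 over empty vector. How the deposited signals were scaled is not stated, and their medians differed, 15.4 for the empty vector and 14.1 for miR-155.

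The spliceosome removes introns from pre-mRNA. Its small nuclear ribonucleoproteins (snRNPs) carry a ring of Sm proteins around their RNA; the U1 snRNP recognises the start of the intron, and the U2 snRNP, with the SF3a and SF3b complexes, the branch site near its end. Many of the Prpf proteins act with the U4/U6.U5 tri-snRNP, which joins next, and SR proteins bind exons and help to recruit these parts. SR proteins also regulate their own mRNAs through alternative exons that lead to decay of the transcript, so different probesets of one SR gene can report different transcript forms.

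The microRNA that was introduced is shown for its seed, bases 2 to 8, in capitals. The labels name miR-155 without an arm; the sequence is that of the 5p arm in RefSeq (GRCm38.p6, chr16:84714143-84714165, plus strand).

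mmu-miR-155-5p: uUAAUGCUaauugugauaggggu

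Of the 40 members, 38 lay in the upper 50% of genes by mean signal (9097 genes, geometric mean of at least 25.8), and 34 in the upper 25%. None of the 38 differed by 1.5-fold between the arrays. Among all 9097 genes, 11.3% passed that threshold, 5.32% upwards (484 genes) and 5.99% downwards (545 genes); the split was 618 and 432 when the median of all probesets was set to 0, and 569 and 465 after quantile normalisation. In the upper 25% of signal, where large ratios are rarer, the share was 4.51%, so a count of 0 among 34 members is close to that background. At a 1.2-fold threshold, chosen after the data were seen, 1 member was higher and 4 were lower, 13.2% of 38, against 36.3% of all genes kept (15.1% higher and 21.2% lower). In the upper 25% of signal this was 3 of 34 members (8.82%), against 23.3% of genes. The median log2 ratio was −0.09, with a range of −0.57 to 0.40, against −0.05 for all genes kept. A ratio below 0 was found for 28 of 38 members and for 58.0% of all genes kept; these became 20 of 38 and 45.0% with the median of all probesets at 0, and 22 of 38 and 50.4% after quantile normalisation, so the sign of the small ratios below depends on the scaling.

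**Figure D1:**
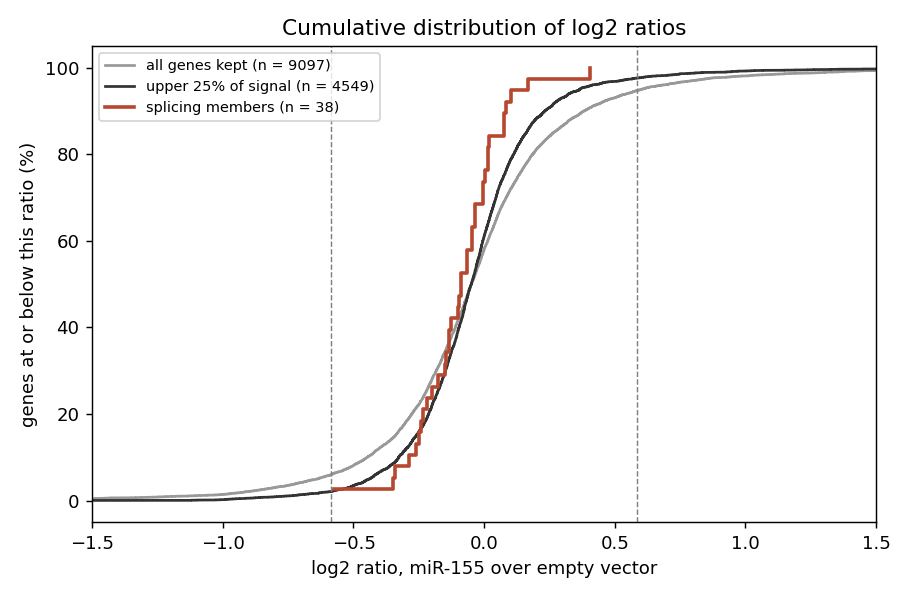
Cumulative share of genes (%) at or below each log2 ratio of miR-155 over empty vector, for the 38 members, the 9097 genes kept and the 4549 genes in the upper 25% of signal; dashed lines mark 1.5-fold, and the axis leaves out ratios beyond 1.5. All 38 members lie between the dashed lines, from −0.57 to 0.40.

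As the only measure of spread on these arrays, each gene is given a local spread, the scaled median absolute deviation of log2 ratios over the 500 genes closest to it in brightness. By this measure 10 of 38 members (26.3%) lay more than 1 local spread from the local median, against 33.5% of all genes kept, and 0 lay more than 2 away, against 9.97%. The members are bright, and the local spread falls with signal, from 0.59 for Prpf40b, the dimmest of the 38, to 0.11 for those such as Snrpg. It does not measure variation between clones or cultures.

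The Sm ring proteins were nearly level. Snrpb, which encodes SmB, read 2944 with the empty vector and 2663 with miR-155, a log2 ratio of −0.14 with a local spread of 0.11. Snrpg (SmG) read 4457 and 4162, and Snrpe (SmE) 4319 and 4182, log2 ratios of −0.10 and −0.05. The 5 Sm genes kept were all slightly lower as deposited, Snrpb the most, but only 2 of 5 were below 0 under each of the other scalings. Snrpd1 and Snrpd2 are not among the 5, having only probesets listed for several genes. As deposited, that of Snrpd1 read 1595 and 1524 (−0.07), and that of Snrpd2 was slightly higher with miR-155, 3359 and 3573 (0.09). Snrpd3 (SmD3) read 1382 and 1322, and Snrpf (SmF) 1475 and 1440, log2 ratios of −0.06 and −0.03. A second probeset of Snrpb went the other way, from 2635 to 2893 (0.13), so the sign of its small difference depended on the probeset.

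Of the Snrp genes for U1 or U2 snRNP proteins, the 3 kept read level or slightly higher. Snrpa is not among them. Its probeset, listed also for Gm21559 and Gm5161, read 995 with the empty vector and 891 with miR-155 (−0.16). Snrpc, the U1-specific protein that stabilises pairing at the start of the intron, read 1322 with the empty vector and 1422 with miR-155, a log2 ratio of 0.10 (local spread 0.16). The U2-specific Snrpb2 read 1586 and 1672 (0.08), and Snrpa1 1415 and 1420 (0.00). The largest of these differences, that of Snrpc, was 1.08-fold, and the 3 genes were above 0 under all 3 scalings. Further probesets gave 0.14 and 0.08 for Snrpa1 and −0.03 for Snrpb2. Over the 8 Snrp genes kept the median was −0.04, from −0.14 to 0.10, the narrowest range of the subgroups. Snrpn, encoding the SmB-related protein SmN of neurons, was at 2.04 and 1.15 by its probeset annotated to 1 gene, below the signal floor, and has no ratio here. Of probesets listed for both Snurf and Snrpn, the brightest read 739 with the empty vector and 432 with miR-155 (−0.77). The next read 42.9 and 75.8 (0.82). Both were beyond 1.5-fold, and neither can be assigned to 1 gene.

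The SF3 genes ranged from level to slightly lower. Sf3b1, the largest SF3b subunit and the one that holds the branch-site duplex, read 1507 with the empty vector and 1504 with miR-155, a log2 ratio of −0.00. Its next brightest probesets both gave −0.01, and a much dimmer one, at 55.6 and 36.8, stood apart (−0.60). Sf3b2 read 982 and 980, with −0.31 (862 and 696) and −0.28 (476 and 390) in 2 of its further probesets and −0.04 and 0.01 in 2 others. Sf3b1 was thus level by 3 bright probesets, while the probesets of Sf3b2 divided into a lower pair and a level group.

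Sf3b4, an RNA-binding subunit next to the branch site, had the lowest ratio of the SF3 genes, 1355 against 1071 (log2 ratio −0.34, local spread 0.15), and at 1.78 local spreads below its local median lay the farthest from it of any member. Its second probeset read 205 and 234 (0.20), in the opposite direction. Sf3b6, which contacts the branch-site adenosine, read 1576 and 1394 (−0.18). Its 2 further probesets above the floor gave −0.23 and −0.22, so its 3 probesets spanned a range of 0.06. The scaffold subunit Sf3b3 read 1163 and 1048 (−0.15, but 0.29 in a dimmer probeset), and the small subunit Sf3b5 2069 and 1948 (−0.09 in both its probesets above the floor). Of the SF3a complex, Sf3a3 read 799 and 807, Sf3a1 435 and 439, and Sf3a2 1009 and 944, log2 ratios of 0.01, 0.01 and −0.10; the dimmer second probesets of Sf3a1 (68.4 and 47.6) and Sf3a2 (136 and 93.9) both gave lower ratios, −0.52 and −0.53. All 6 SF3b genes had a ratio below 0 as deposited and 4 of 6 under each other scaling, against 1 of 3 SF3a genes in all 3, and the median of the 9 was −0.09.

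**Figure D2:**
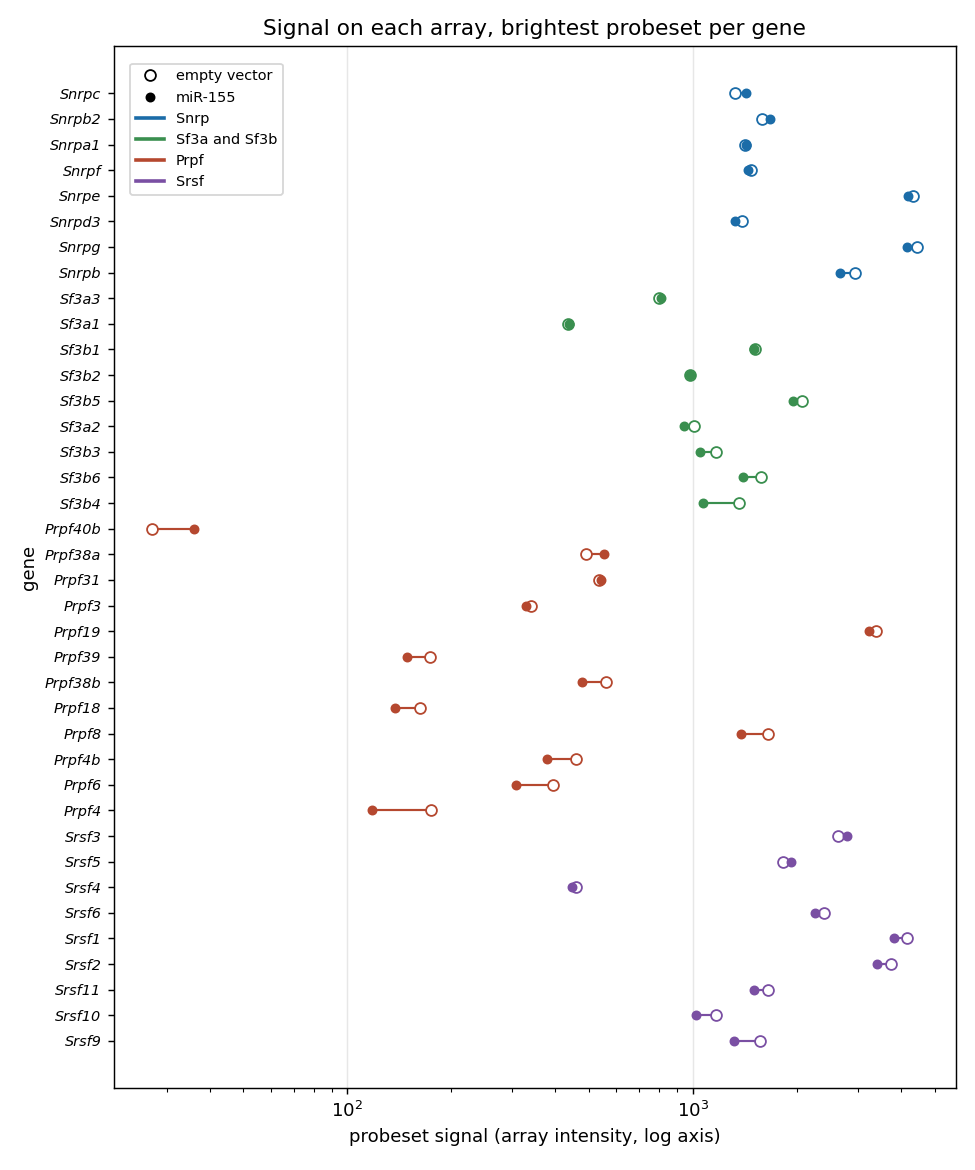
Probeset signal (array intensity, log axis) of the 38 members with the empty vector (open circles) and with miR-155 (filled circles), joined by a line and coloured by subgroup; brightness differs between probesets and does not rank the genes. The longest lines belong to Prpf4 (175 and 118) and Prpf40b (27.3 and 36.1), while those of Sf3b1 and Sf3b2 cannot be seen.

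The Prpf genes had the lowest median of the subgroups and the widest range, −0.23 with values from −0.57 to 0.40; 9 of 12 were below 0 as deposited, and 7 of 12 once all probesets were centred on a median of 0. Prpf4, a WD-repeat protein of the U4/U6 snRNP, was the lowest member, at 175 with the empty vector and 118 with miR-155. That is a 1.49-fold difference (log2 ratio −0.57, local spread 0.31). It lay just inside the 1.5-fold threshold, and its second probeset read 43.2 and 30.8, a log2 ratio of −0.49. Its 2 probesets were therefore both lower by a like amount, and its distance from the local median was −1.70 local spreads.

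Of its tri-snRNP partners, the U5 protein Prpf6 read 393 and 309 (−0.35, local spread 0.21), but 260 and 312 (0.26) in its other probeset above the floor, one of a kind marked as able to bind related sequences. Among others, the brightest probesets of Sf3b2 and Prpf19 and the second of Sf3b4 are of that kind too. Prpf8, the U5 protein at the heart of the catalytic core, read 1654 and 1381 (−0.26, local spread 0.15) in its only probeset. The U4/U6 proteins Prpf3 (340 and 330) and Prpf31 (533 and 541) were level, at −0.05 and 0.02, and Prpf31 gave −0.15 in a further probeset. By the brightest probeset, Prpf4, Prpf6 and Prpf8 thus read lower, under the other scalings too, and Prpf3 and Prpf31 were level; with its probesets above the floor averaged, Prpf6 was at −0.04.

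Prpf4b, a protein kinase that phosphorylates tri-snRNP proteins, read 459 and 377 (−0.29, local spread 0.19) and −0.37 in its second probeset, but −0.03 to −0.00 in the 3 dimmer ones above the floor. The step-two factor Prpf18 read 163 and 137 (−0.24), and Prpf39, a U1-associated protein, 174 and 149 (−0.22, with −0.20 and −0.08 in further probesets). Prpf38b read 561 and 477 (−0.23), against 0.03 and 0.08 in its further probesets. These 4 had like ratios by the brightest probeset, and for 2 of them, Prpf4b and Prpf38b, other probesets were level. Prpf19, the ubiquitin ligase of the complex that activates the spliceosome, read 3381 and 3229 (−0.07), with −0.17 to −0.06 over its 4 probesets above the floor. Prpf38a, a protein of the precatalytic spliceosome, read higher, 491 and 552 (0.17). Prpf40b, a U1-associated protein, had the highest ratio of all members, 27.3 and 36.1 (0.40), at a signal just above the floor where the local spread was 0.59.

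Of 9 Srsf genes kept, 7 had a ratio below 0 (6 under each other scaling), with a median of −0.13 and a range of −0.25 to 0.08. Srsf1, which encodes the founding SR protein SF2/ASF, read 4158 with the empty vector and 3811 with miR-155 (log2 ratio −0.13, local spread 0.11), with −0.22 to 0.01 over its 6 probesets above the floor. Srsf2, encoding SC35, read 3741 and 3411 (−0.13), and its further probesets gave −0.16, −0.07 and, in the dimmest, 0.21. Srsf6 read 2398 and 2258 (−0.09), and −0.29 to −0.10 in its 3 further probesets. As deposited, most probesets of these 3 genes above the floor were a little lower with miR-155, none by 1.5-fold.

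The classical SR protein gene with the lowest ratio was Srsf9, 1559 and 1313 (−0.25, local spread 0.15), measured by 1 probeset. Srsf4 read 459 and 448 (−0.04), and Srsf5 1825 and 1924 (0.08), each by 1 probeset. These 3 genes were therefore spread on both sides of the median of all genes kept. Srsf11, an SR-like protein, read 1651 and 1504 (−0.13), with −0.15 and −0.13 in its further probesets above the floor. Srsf12 was at 0.39 and 6.37, below the floor on both arrays, and has no ratio here.

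Among the Srsf genes, probesets above the floor differed most within Srsf3 and Srsf10. Srsf3, the smallest classical SR protein, read 2636 and 2795 (0.08) in its brightest probeset, −0.24 to 0.01 in its next 4, and 29.7 and 55.0 (0.89) in its dimmest, a range of 1.13. Srsf10, an SR-like protein that represses splicing when dephosphorylated, read 1169 and 1018 (−0.20) in its brightest probeset. Its second read 665 and 445 (−0.58), and the other two 475 and 444 (−0.10) and 155 and 157 (0.02). One probeset of each gene thus stood apart from the rest, upwards for Srsf3 and downwards for Srsf10, but at unlike brightness. That of Srsf3 read close to the floor of 25.8 with the empty vector. At like brightness, the splicing factor Rbfox3 (29.3 and 47.9) had a local spread of 0.56. That of Srsf10 was brighter, and near its brightness Prpf31 (533 and 541) had a local spread of 0.20. Which transcript forms these probesets report was not tested.

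**Figure D3:**
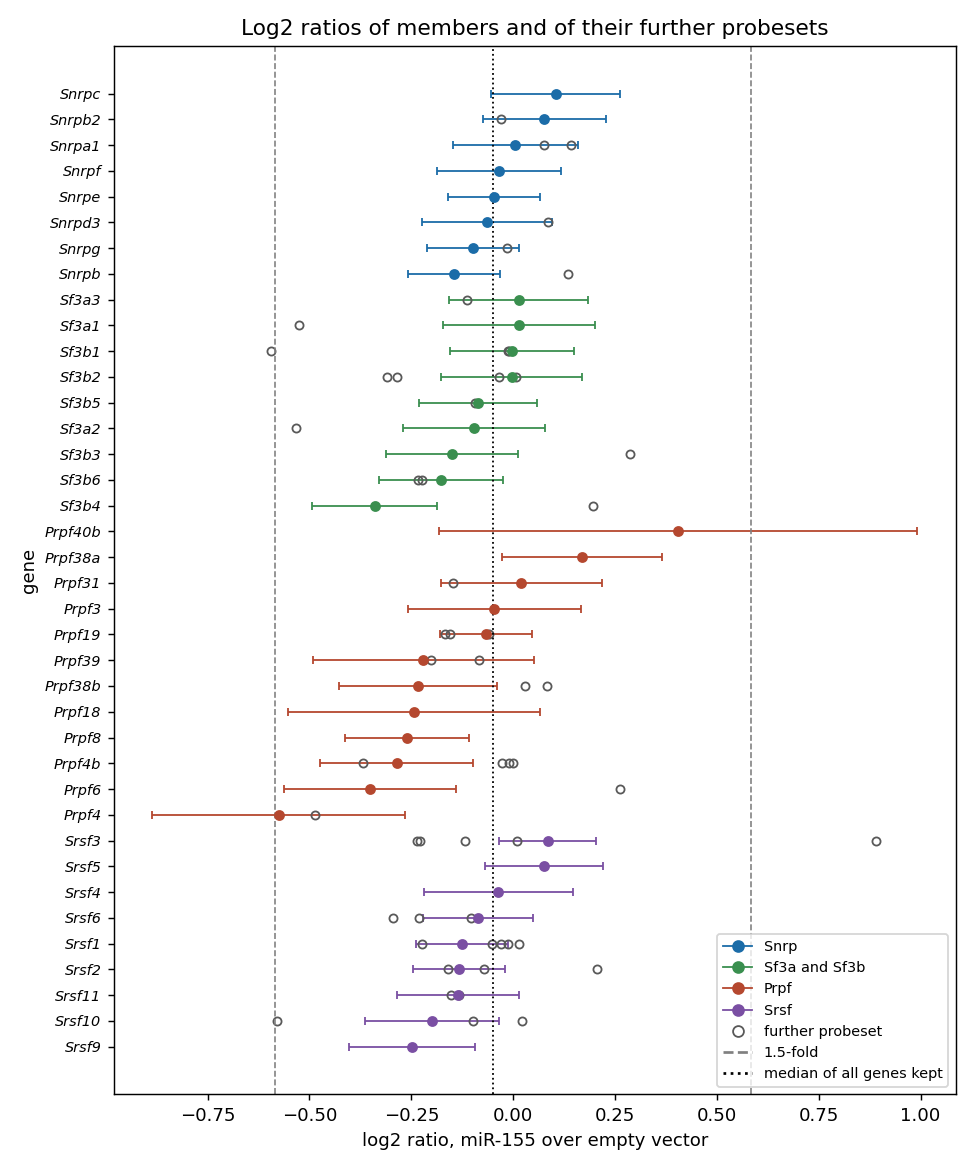
Log2 ratio of miR-155 over empty vector for each of the 38 members (filled circles, brightest probeset; bars are 1 local spread to each side) and for 56 further probesets that reached the floor on both arrays (open circles); dashed lines mark 1.5-fold and the dotted line the median of all genes kept (−0.05). Only 1 open circle of Srsf3 (0.89) and 1 of Sf3b1 (−0.60) lie beyond 1.5-fold, and no filled circle does.

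Over the 27 members with a further probeset of which both readings reached the floor, there were 56 such probesets. Their ratios differed from that of the brightest probeset by a median of 0.13 on the log2 scale and by up to 0.81, 41 of 56 were below 0, and the 1.5-fold threshold was passed by 1 upwards and 1 downwards. Within a gene, probesets share the RNA and the array, so this is a measure of probeset noise and of transcript forms together. By subgroup, the further probesets had a median of 0.08 for Snrp (6 probesets), −0.11 for Sf3a and Sf3b (15), −0.07 for Prpf (14) and −0.10 for Srsf (21). The median of the further Prpf probesets was therefore less low than that of the Prpf genes, with 11 of 14 below 0. These medians cover unlike genes, since Prpf8 and Prpf18, at −0.26 and −0.24, have no further probeset. With the mean of all probesets above the floor in place of the brightest, an alternative chosen after the data were seen, the Prpf median was −0.09 and that of Sf3a and Sf3b −0.13. The Snrp median turned from −0.04 to 0.04 when all probesets were centred on a median of 0 and to 0.02 with quantile normalisation, and the medians of the other subgroups kept their sign under both scalings.

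Lists of other splicing genes were drawn up by function, with earlier results of these data known, and described in the same way. Of 161 genes kept on them, 4 passed 1.5-fold, or 2.48%, against 11.3% of all genes kept; none of the 127 in the upper 25% of signal did, against 4.51%. Without Ddx23, which had a reading below the floor, 2 were higher and 1 lower. The median was −0.07. No gene of the Prp19 complex and step factors (30 genes, median −0.01), of the hnRNP and related proteins (31, −0.08), of the SR-related proteins and SR protein kinases (29, −0.08) or of the exon junction complex (4, −0.12) was 1.5-fold different. The exon junction list, the smallest, moved to −0.29 when several probesets of a gene were averaged. hnRNP proteins bind nascent RNA and often oppose SR proteins, whose activity the SR protein kinases set by phosphorylation.

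Among 27 other snRNP proteins (median −0.08), the fourth gene of that count was the U5 helicase Ddx23, which read 16.9 and 42.7, the first below the floor, so no ratio is given. Of 12 LSm proteins (−0.04), Lsm11, part of the U7 snRNP that processes histone mRNA and not of the spliceosome, read 254 and 104 (log2 ratio −1.29, 2.45-fold lower, local spread 0.27). Its second, dimmer probeset read 39.2 and 46.8 (0.26), in the opposite direction. Of 14 genes of the SMN complex (−0.01), which loads Sm proteins onto snRNAs, Gemin8 read 46.1 and 90.5 (0.97, local spread 0.40), and its further probesets were below the floor on both arrays. Of 14 tissue-regulated splicing factors (−0.17), 12 were below 0 and only Rbfox3, at 29.3 and 47.9 (0.71, local spread 0.56), was beyond 1.5-fold. The further probesets of Rbfox3 were also below the floor on both arrays. Of the 29 genes of this list on the array, 15 were below the signal floor by their mean, and with these included the list median was −0.30.

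**Figure D4:**
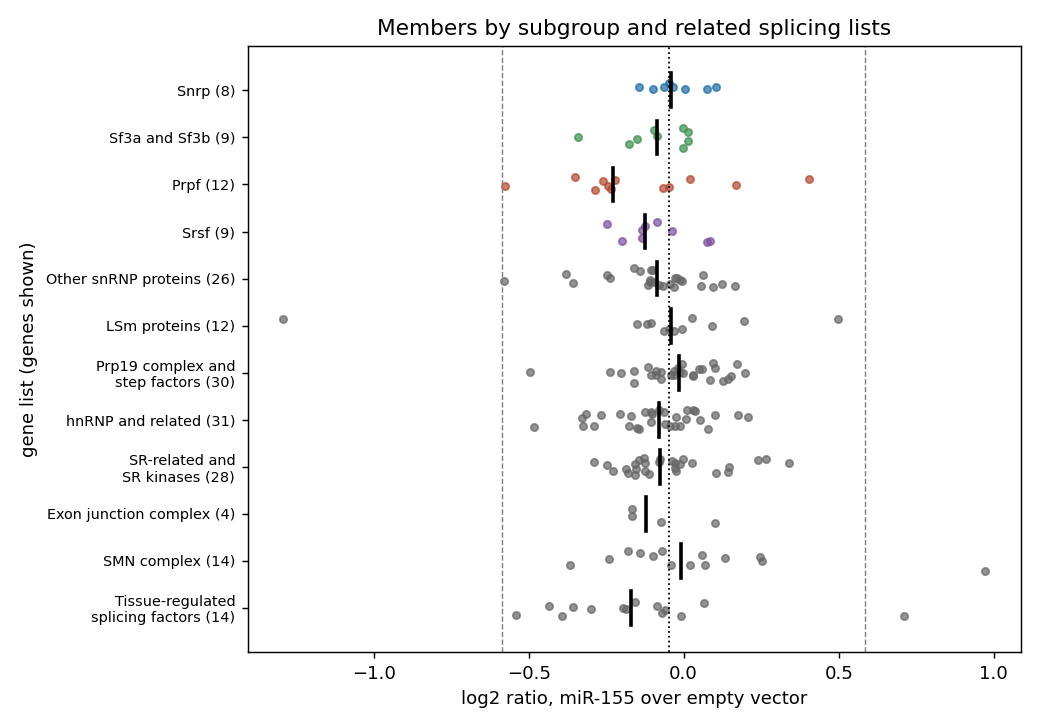
Log2 ratio of miR-155 over empty vector for each gene kept in the 4 subgroups of members (coloured) and in 8 related lists (grey), leaving out 2 related genes with a reading below the floor; the number of genes shown is in brackets, vertical bars are their medians, dashed lines mark 1.5-fold and the dotted line is the median of all genes kept. The points outside the dashed lines are Lsm11 to the left and Gemin8 and Rbfox3 to the right, none of them a member.

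What the members share beyond their names was looked for in their promoters, 250 bases before to 50 after the start site, from the RefSeq table of build GRCm38.p6. Of the 38 members, 34 had an entry, with 41 start sites, and Prpf18, Sf3b4, Sf3b5 and Snrpb had none. The letters CCGGAAG on either strand, a form of the site that ETS transcription factors bind, stood in 20 of 41 promoters (48.8%), against 20.0% of the 9600 promoters of all genes kept and 8.86% of the 32841 in the table. Start sites of Sf3b2 and of Srsf4 that nearly coincide count separately in these shares. By gene this was 17 of 34 members (50%), against 23.4% of the 7513 genes kept that had an entry and 9.93% of all genes with one. The share was thus higher among brighter genes. Most members are brighter still, and no share was taken for genes of like brightness, so the difference cannot be put down to splicing genes as such. The 17 were 6 of 7 Sf3a and Sf3b genes, 4 of 7 Snrp, 4 of 11 Prpf and 3 of 9 Srsf genes. A GC box (GGGCGG, either strand) stood in 58.5% of members' promoters, against 64.1% for genes kept, and the letters TATAAA in 7.32% against 6.79%. Of the other 3 motifs searched, also on either strand, CCAAT stood in 43.9% against 38.1%, AAGATGGC (YY1) in 4.88% against 5.05%, and GCGCATGC (NRF1) in 2.44% against 5.84%. The ETS letters were thus singled out from 6 motifs after their shares were seen. The median log2 ratio was −0.05 for the 17 genes with the motif and −0.09 for the 17 without. A link between the motif and the ratio was not tested. A match describes these letters only.

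The promoters of the 2 members with the lowest ratios, one without and one with the motif, are shown with those of the Sf3a or Sf3b gene and the Snrp gene with the highest ratios, which both hold it; the motif is in capitals, on the strand of the gene. They are Prpf4 (chr4:62408533-62408832, plus strand), Prpf6 (chr2:181601069-181601368, plus), Sf3a3 (chr4:124714611-124714910, plus) and Snrpc (chr17:27839837-27840136, plus).

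Prpf4: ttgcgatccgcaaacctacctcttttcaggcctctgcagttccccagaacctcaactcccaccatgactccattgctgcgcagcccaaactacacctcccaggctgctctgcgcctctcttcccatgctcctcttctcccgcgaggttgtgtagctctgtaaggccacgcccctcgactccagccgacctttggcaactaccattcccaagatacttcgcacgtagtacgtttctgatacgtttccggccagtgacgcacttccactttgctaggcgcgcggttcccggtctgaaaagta
Prpf6: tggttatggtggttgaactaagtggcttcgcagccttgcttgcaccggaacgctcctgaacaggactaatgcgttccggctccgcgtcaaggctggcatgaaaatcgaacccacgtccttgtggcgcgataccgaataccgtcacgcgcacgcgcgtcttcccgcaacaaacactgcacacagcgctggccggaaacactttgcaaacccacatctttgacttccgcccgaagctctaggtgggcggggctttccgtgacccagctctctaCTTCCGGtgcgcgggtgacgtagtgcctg
Sf3a3: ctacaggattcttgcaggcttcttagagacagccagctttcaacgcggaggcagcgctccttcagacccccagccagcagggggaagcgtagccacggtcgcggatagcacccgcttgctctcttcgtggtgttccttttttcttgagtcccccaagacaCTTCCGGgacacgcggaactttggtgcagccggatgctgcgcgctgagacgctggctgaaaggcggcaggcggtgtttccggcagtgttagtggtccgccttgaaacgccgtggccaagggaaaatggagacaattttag
Snrpc: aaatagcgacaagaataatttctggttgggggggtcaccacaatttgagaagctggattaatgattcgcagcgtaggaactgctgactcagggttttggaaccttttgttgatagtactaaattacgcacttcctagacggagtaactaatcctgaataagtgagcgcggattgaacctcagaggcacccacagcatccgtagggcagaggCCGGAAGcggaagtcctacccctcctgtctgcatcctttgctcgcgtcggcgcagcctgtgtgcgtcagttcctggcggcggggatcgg

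Of the line's identity, 8 of 9 macrophage markers (all but Mrc1) were at or above the signal floor on both arrays, and of these 8, Cd14 (1728 and 4145) and Fcgr1 (716 and 1130) read at least 1.5-fold higher with miR-155, and Adgre1 (472 and 289) and Spi1 (1067 and 700.1) at least 1.5-fold lower. Their part in the splicing gene values was not tested. Of 16 markers of B cells, T cells, fibroblasts and neutrophils, 0 reached it with the empty vector and 2 with miR-155, Cd8a at 26.5 and Ngp at 29.6, both close to the floor of 25.8.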

How the data were processed

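Biotin-labelled total RNA of 2 pools, each from 5 clones, was hybridised to 1 Affymetrix array per group, per the labels' protocols. The authors deposited probeset intensities on a linear scale; the methods of summarisation, background correction and scaling were not given in the sources used here. Gene names came from the platform annotation, updated through the Entrez identifiers in RefSeq (GRCm38.p6), and 64 control probesets were left out. Of the other 45037 probesets, 34945 had 1 gene symbol, 932 several and 9160 none; only the first were used. The log2 ratio was taken with no offset, and no ratio is printed where a reading was below the signal floor of 25.8. The 38 members kept are named with both signals; of other splicing genes, the 2 highest and 2 lowest of each list are named if beyond 1.5-fold. Members, lists and functional groups were chosen with earlier results of these data known. With 1 array per group there was no test. The code for the counts and the local spread was run on simulated data. Its noise was drawn from the local spreads of these data, and its planted changes were larger than the ratio of any member kept. That run does not bear on the small ratios reported here. Alternatives were an offset of 50, other filters on dim genes, other uses of several probesets, and 2 scalings. Protein sequences were not analysed here. Python 3.11.15, numpy 2.4.6 and pandas 2.3.3 were used.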

Additional observations from a re-analysis of the deposited data

How the results depend on the processing

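Under 9 settings, the one reported included, the median over all members stayed between −0.11 and −0.01. The count of members at least 1.5-fold different was 0 except where dim probesets were let in: with no filter 1 of 40 was higher and 1 lower, both from readings below the floor, and with the mean of all probesets, dim ones included, 4 were lower. With a 1.2-fold threshold, added after the data were seen, 1 member was higher and 4 were lower. The median of the Prpf members ranged from −0.23 to −0.087, the latter with the mean of probesets above the floor (also added after the data were seen). Over all genes kept, the counts past 1.5-fold, upwards and downwards, were 484 and 545. They became 205 and 196 with an offset of 50, 110 and 95 for genes in the brightest 25%, 3111 and 3848 with no filter, 713 and 978 when all probesets of a gene were averaged, and 1376 and 1928 at 1.2-fold. Of 294 single-member values under the alternatives, 33 turned sign, and 20 of the 38 members did so in some setting. In all, 26 of the values moved by more than the local spread of their gene. Of these, 15 were with the mean of all probesets, 7 with the mean of probesets above the floor, and 4 with the alternative described next. One alternative used only probesets with the plain ending _at, leaving out those ending in _a_at, _s_at or _x_at. With it, 32 of the 38 members had a value. There, 4 members moved by more than their local spread: Sf3b2 to −0.31, Srsf10 to −0.58, Srsf3 to −0.24 and Srsf2 to 0.21. No paired analysis was possible because the groups share only 1 replicate number. The number of arrays, 1 per group, limits the precision of every value.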

Other observations

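Further members of these gene families were seen only by probesets annotated to several genes, which enter no count above. A probeset listed for Gm14277 and Snrpd1 read 1595 on the empty-vector and 1524 on the miR-155 array. One listed for Gm5848 and Snrpd2 read 3359 and 3573, and one listed for Gm21559, Gm5161 and Snrpa 995 and 891. All 3 were within 1.5-fold. There were 6 probesets listed for both Snurf and Snrpn, whose transcripts share an imprinted locus. The brightest read 739 and 432 (log2 ratio −0.77), and the next read 42.9 and 75.8 (0.82), in the opposite direction. Both were beyond 1.5-fold, and the other 4 were below the signal floor on both arrays. These probesets cannot be assigned to 1 of the genes, and they were singled out after their values were seen.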
